A study of Saccharomyces cerevisiae with 14 samples.

Results

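The comparison described here set the ARV1 mutant isolate SCY840 against the control strain SCY328 of budding yeast, Saccharomyces cerevisiae, on the Affymetrix Ye6100 array format. Its members were the open reading frame (ORF) probe sets of that format, 6421 of 6593, with 1 RNA sample on each side out of 5 in the study. Of the 6421, 5840 matched a locus of the R64 gene table and stood for 5662 genes, and 4535 of these genes had a mean signal over 22.5 (the 25th percentile) and were described. Control and mutant strains were isolates of the w303 background and of mating type a (MATa), grown in the rich glucose medium YEPD to mid-logarithmic phase, at an A600 of 0.5 to 0.6. Control 1/2 (SCY328, genotype "control") and ARV1 mutant 2 (SCY840) each filled the 4 chips of 1 Ye6100 set. ARV1 mutant 1 (isolate SCY820) was read on Ye6100 against the same control 1/2. ARV1 mutant 3 (SCY840 again) was read on the single-chip S98 format against control 3 (SCY2004). The labels do not say what the ARV1 lesion is, nor whether mutants 2 and 3 came from the same culture.

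The product of ARV1 sits in the membrane of the endoplasmic reticulum (ER), and cells need it for normal movement of sterols and of precursors of glycosylphosphatidylinositol (GPI) anchors. The ER folds and glycosylates secreted proteins. When unfolded proteins accumulate there, the sensor Ire1 splices the messenger of the transcription factor Hac1, which raises chaperones, disulfide enzymes and degradation factors, a program called the unfolded protein response.

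With 1 RNA sample a side, no test was possible, and ratios are given as measured. A gene is counted as higher or lower when its signals differed by at least 2-fold. Control probe sets that recur on all 4 chips of a sample gave the technical spread. Over 26 such probe sets, the median SD of log2 signal between chips was 0.28 in control 1/2 and 0.26 in mutant 2. That spread covers chip-to-chip error only. An ORF probe set was read once, and variation between cultures was not measured.

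The ARV1 transcript (YLR242C, chromosome XII) gave 33.4 in the control 1/2 sample, 2.2 in the mutant 2 sample and 1.0 in the mutant 1 sample. These mutant values fell short of 2.4, the 5th percentile of the table and the floor used for ratios, so ARV1 was at least 13.9-fold lower in mutant 2, or at least 2.74-fold with a floor at the 15th percentile. The mean of control and mutant signal was under the filter, so ARV1 is not among the genes counted. In a bulk sample a lower signal can mean less RNA per cell or fewer cells that carry it, which cannot be told apart. All 4 genes that mark alpha cells (MF(ALPHA)1, MF(ALPHA)2, STE3 and SAG1) lay under the signal filter. The a-factor gene MFA1 had signals of 839.4 in control 1/2 and 1195.0 in mutant 2. MFA2, the other a-factor gene, had 4272.5 and 1712.8 (2.49-fold lower), and the alpha-factor receptor gene STE2 had 320.8 and 189.6. The markers thus matched the labelled mating type.

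The RNA profile of mutant 2 stood apart before any gene was compared. The 2% trimmed mean signal was 250.1 in control 1/2 and 249.7 in mutant 2, so the columns were already on a common scale. In the 3 genes with probe sets along the transcript, the ratio of 5′ to 3′ signal was lowest in mutant 2 of the Ye6100 samples. For ACT1, which encodes actin, control 1/2 had a ratio of 5′ to 3′ signal of 0.781, mutant 1 of 0.764 and mutant 2 of 0.351. On the 4 chips the ACT1 5′ probe set ranged from 2302.8 to 3373.4 in control 1/2 and from 1063.0 to 1440.7 in mutant 2. These ranges did not overlap, while the 3′ ranges (3520.8 to 3993.3 and 3077.1 to 3608.4) did. SPT15, the TATA-binding protein gene, had 5′ to 3′ ratios of 0.563 in control 1/2, 0.603 in mutant 1 and 0.370 in mutant 2. Its 5′ chip ranges overlapped (215.3 to 309.0 in control 1/2 and 170.1 to 235.7 in mutant 2). SRB4, a Mediator subunit gene of low signal, had 0.692, 0.400 and 0.201 in the same order, with 5′ ranges of 18.0 to 31.0 and 6.5 to 17.6 that did not overlap. On S98 the ratio was 1.15 in control 3 and 1.17 in mutant 3 for ACT1, 0.518 and 0.296 for SPT15, and 0.403 and 0.274 for SRB4. The low ACT1 ratio of mutant 2 was therefore not seen in the S98 sample of the same isolate, whereas the SPT15 and SRB4 ratios were lower in mutant 3 than in control 3.

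**Figure D1:**
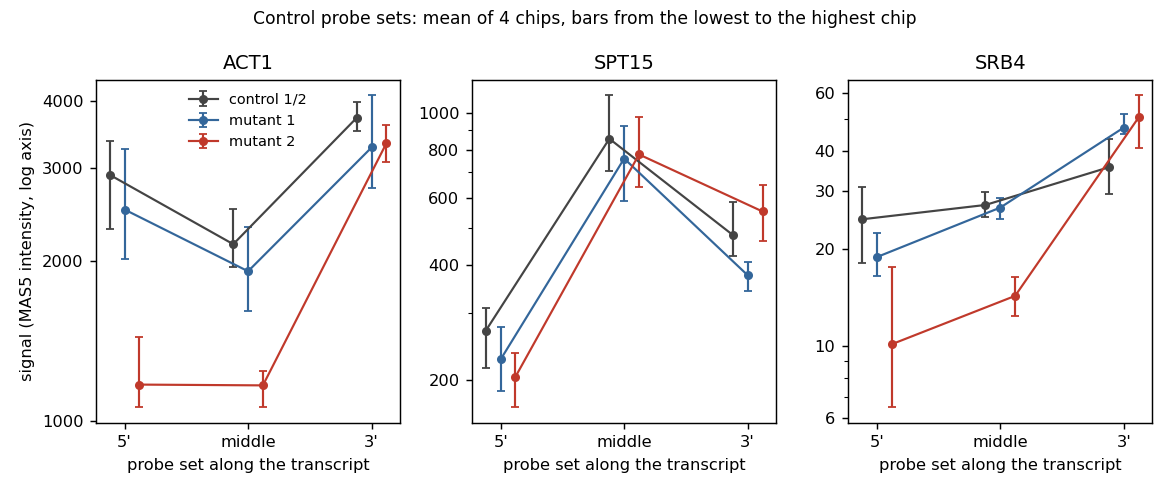
Signal (MAS5 intensity, log axis) of the 5′, middle and 3′ probe sets of ACT1, SPT15 and SRB4 in control 1/2, mutant 1 and mutant 2, where points are means over 4 chips and bars run from the lowest to the highest chip. In mutant 2 the ACT1 5′ and middle probe sets sit at 1172 and 1168, against 2909 and 2154 in control 1/2, while the 3′ ranges overlap.

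Probe sets split by exon went the same way. Over 68 genes with separate probe sets for the first and the second exon, the log2 ratio of mutant 2 to control 1/2 was lower in the first exon by a median of 0.31, and lower in 49 of the 68 genes. In mutant 1 the median difference (first minus second exon) was -0.06, with 39 genes lower in the first. Ribosomal RNA probe sets, which read RNA that poly(A) selection is meant to remove, were higher in control 1/2 than in mutant 2 by a median of 10.1-fold over 10 probe sets (2.29 to 17.9), and the chips did not overlap in any of the 10. The 9 bacterial and phage spike probe sets, which report labelling or hybridisation, had a median ratio of 1.01 (0.951 to 1.21). Of these 9, 0 had chips that did not overlap. Against mutant 1 the control's median ratio was 2.43 for ribosomal RNA and 2.13 for the spikes.

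Log2 ratios in mutant 2 also moved with gene length. In 5 equal groups of 907 genes, the median log2 ratio was 0.56 in the shortest genes (78 to 675 bases in R64), then 0.15, -0.26, -0.42 and, in the longest (2040 to 14733 bases), -0.21. Of the shortest genes 27.5% were at least 2-fold higher and 6.84% lower, and of the fourth group (1404 to 2040 bases) 6.50% were higher and 26.0% lower. In mutant 1 the group medians ran from 0.09 to 0.26, and in mutant 3 from -0.19 to 0.32, both lowest in the shortest genes. The part of these features in the gene ratios below was not tested. For many of the gene lists, though not all, the median after a loess fit of the log2 ratio on gene length is given beside the measured one.

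**Figure D2:**
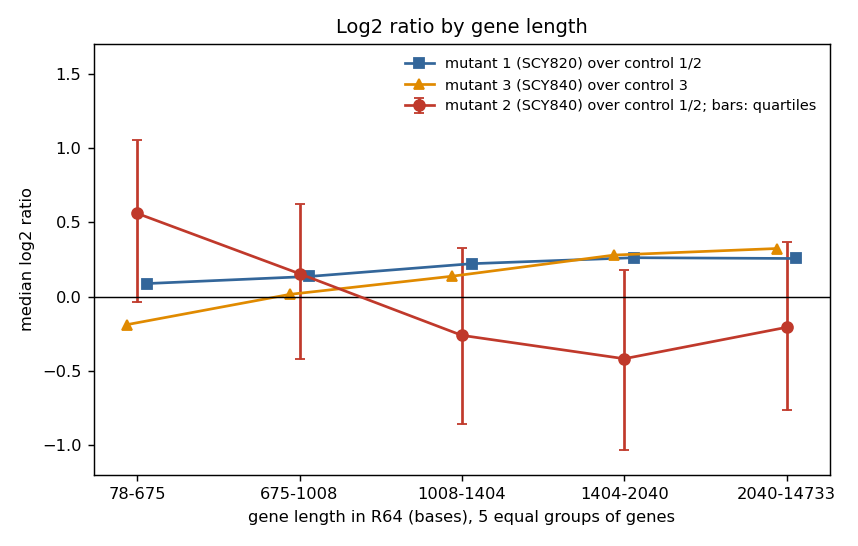
Median log2 ratio of each mutant over its control (vertical axis) in 5 equal groups of genes by R64 gene length (horizontal axis), with quartiles as bars for mutant 2. The median in mutant 2 is 0.56 in the shortest group and -0.42 in the fourth, while those of mutants 1 and 3 are lowest in the shortest group.

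Over the 4535 genes, the median log2 ratio of mutant 2 to control 1/2 was -0.03, the quartiles were -0.69 and 0.57, and the 5th and 95th percentiles -1.75 and 1.45. At least 2-fold higher were 564 genes (12.4%), and 753 (16.6%) were at least 2-fold lower. Counts of list members below are to be read beside these shares of all genes. After quantile normalization the balance turned, to 656 higher and 602 lower. Among the largest differences, lower genes outnumbered higher ones. At 4-fold there were 68 higher and 155 lower genes, and at 8-fold 9 higher and 52 lower. These counts rest on the floor at the 5th percentile, with 373 ORF probe sets under it in mutant 2 and 249 in control 1/2. With a floor at the 15th percentile, MGA1 came from 21.2-fold to 6.61-fold lower and YME1 from 20.6-fold to 6.07-fold. Beside mutant 2, with the same control, mutant 1 had 632 higher (13.9%) and 207 lower (4.56%) genes at 2-fold. In mutant 3 against control 3, 417 of 4596 genes were higher (9.07%) and 85 lower (1.85%). Mutants 1 and 2 share control 1/2, so their ratios share its error.

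**Figure D3:**
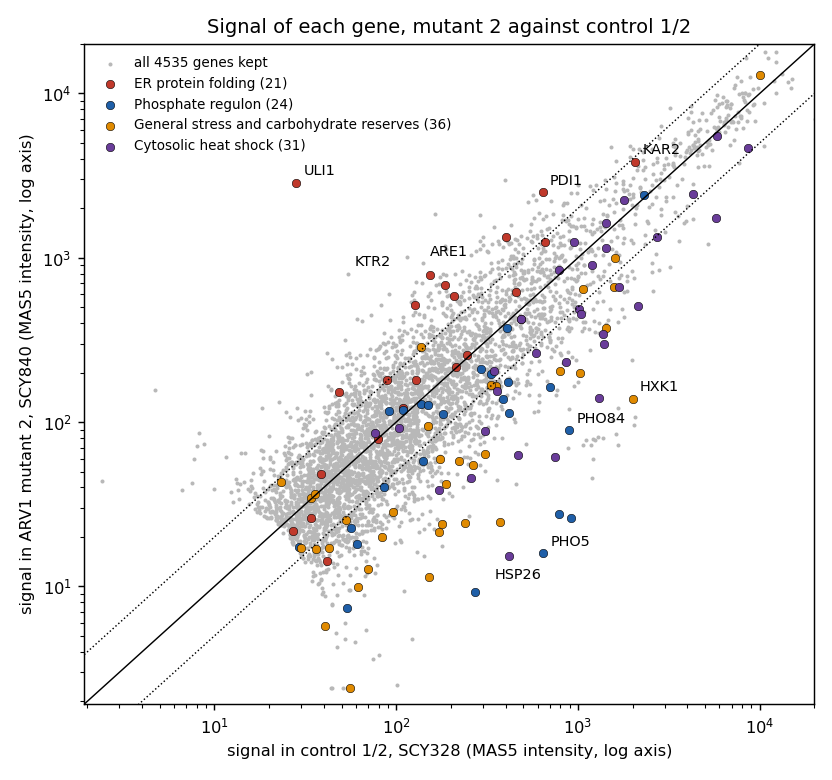
Signal of each of 4535 genes in mutant 2 (vertical log axis) against control 1/2 (horizontal log axis), with members of 4 gene lists coloured, the line of equal signal solid and the 2-fold lines dotted. ULI1 lies furthest above the line, at 28.2 in the control and 2862.4 in the mutant, and the phosphate and stress genes lie mostly under the line.

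The gene furthest above the control was ULI1 (YFR026C), a short gene that the unfolded protein response induces. Control 1/2 gave a signal of 28.2, mutant 2 of 2862.4 and mutant 1 of 2147.1. The scaled S98 signal was 107.6 in control 3 and 3171.8 in mutant 3, so every mutant sample was far above its control. The ratio in mutant 2 was 102-fold, a log2 ratio of 6.67, against 6.25 in mutant 1 and 4.88 in mutant 3.

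Of 21 genes listed for ER protein folding, 9 were at least 2-fold higher in mutant 2 (42.9%, against 12.4% of all genes) and 1 was lower. ULI1, described above, is counted in this list and among the 9. The list's median log2 ratio was 0.90, and 0.85 after the fit on gene length. SIL1, the nucleotide exchange factor of the chaperone Kar2, had signals of 153.1 in control 1/2 and 786.0 in mutant 2, which is 5.13-fold higher. ERO1, the oxidase that feeds disulfide bonds into the ER, went from 127.2 to 516.9 (4.06-fold). Protein disulfide isomerase, PDI1, had 640.3 and 2501.6 (3.91-fold). Further oxidoreductases of its family lay on the same side, with log2 ratios of 1.88 for MPD2, 1.65 for EUG1 and 1.49 for MPD1. KAR2, the Hsp70 chaperone of the ER lumen, had 2060.8 and 3841.9, a 1.86-fold ratio that missed the 2-fold mark. LHS1, an ER Hsp70 that works with Kar2, had 88.9 and 180.1 (2.03-fold). GTB1, the regulatory subunit of glucosidase II, which trims glycans during folding, was the member below, at 41.7 and 14.2 (2.94-fold lower). The list's median was 0.78 in mutant 1 and 0.64 in mutant 3. KAR2 and PDI1 did not keep their size in mutant 3, where their log2 ratios were -0.45 and 0.45.

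HAC1, which encodes the factor that drives the response, had a signal of 918.8 in control 1/2 and 1795.3 in mutant 2, which is 1.95-fold higher. Its probe set does not tell the spliced from the unspliced messenger. The sensor gene IRE1 had signals of 7.3 and 6.9, under the filter. PTC2, a phosphatase that acts on Ire1, went from 332.9 to 106.2 (3.14-fold lower). Of 5 signalling genes kept, ULI1 included, 1 was higher and 1 lower, with a median of 0.96. Over all 7 genes of the list, with no filter, it was 0.144.

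Among 19 genes of ER-associated degradation, which returns misfolded proteins to the cytosol, 4 were higher and 2 lower, with a median of 0.30. These shares were 21.1% and 10.5%, against 12.4% and 16.6% of all genes. DER1, a membrane component of that pathway, had 91.0 in control 1/2 and 601.6 in mutant 2, 6.61-fold higher, and its log2 ratio was 2.48 in mutant 1 and 1.75 in mutant 3. The ligase gene HRD1 had 65.5 and 43.6, so members of the pathway lay on both sides of the control. The ubiquitin shuttle genes RAD23 and DSK2 were the lower members, with log2 ratios of -1.06 and -1.12.

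For ER translocation, the entry of proteins into the ER, 8 of 20 members were higher and 1 lower, and the median log2 ratio of 0.90 came to 0.47 after the fit on gene length. Its median gene length was 678 bases. SEC66, a subunit of the Sec63 complex, had signals of 289.1 and 1273.4 (4.41-fold higher). The signal peptidase subunits SPC3 and SEC11 had 181.9 and 793.3, and 714.2 and 2215.0, for ratios of 4.36-fold and 3.10-fold. SSH1, which encodes the pore of a second translocon, is a longer gene and was lower, at 525.3 and 175.8 (2.99-fold). In mutant 1 the list had a median of 0.28, and in mutant 3 -0.03.

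In ER to Golgi transport, 10 of 28 members (35.7%) were higher and 3 lower, with a median of 0.46, 0.39 after the length fit. ERP2, a p24 cargo protein of COPII vesicles, had 184.9 in control 1/2 and 1171.9 in mutant 2 (6.34-fold higher), yet its scaled signals in control 3 and mutant 3 were 996.5 and 1003.4. RET3, a small subunit of the COPI coat, had a log2 ratio of 1.63 and the GTPase gene SAR1 1.32. The lower members were coat subunits with long genes. SEC31 had -1.38, COP1 had -1.29 and SEC23 had -1.03.

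In lists of sugar addition in the ER and Golgi, the share of higher genes ran from 16.0% to 29.4%, against 12.4% of all genes. The share of lower genes ran from 4.0% to 13.0%, against 16.6% of all genes. In GPI anchor synthesis, the process in which Arv1 is thought to act, 4 of 25 (16.0%) were higher and 1 lower, with a median of 0.41, and 0.76 after the length fit. MCD4, which adds ethanolamine phosphate to the anchor, had signals of 128.8 and 710.1 (5.51-fold higher) and log2 ratios of 2.02 in mutant 1 and 1.71 in mutant 3. GPI10 and GPI14, mannosyltransferases of the anchor, had log2 ratios of 1.29 and 1.21. For N-glycosylation, 4 of 23 (17.4%) were higher and 3 lower, and the median was 0.42, and 0.53 after the length fit. ALG14 had 125.3 and 618.8 (4.94-fold higher), whereas ALG9, a mannosyltransferase of the lipid-linked glycan, had 176.9 and 49.2 (3.60-fold lower). In protein O-mannosylation, 5 of 17 (29.4%) were higher and 1 lower, with a median of 0.32, and 0.63 after the length fit. KTR2, a Golgi mannosyltransferase, had 54.1 in control 1/2, 801.5 in mutant 2 and 483.0 in mutant 1. It was 14.8-fold higher in mutant 2, and its log2 ratio in mutant 3 was 1.67.

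Of 33 cell wall genes, 3 (9.09%) were higher and 6 (18.2%) lower, near the shares of all genes, with a median of 0.04, whereas mutant 1 had 11 higher, 0 lower and a median of 0.75. GSC2, a glucan synthase subunit induced by wall stress, had signals of 82.1 in control 1/2, 518.0 in mutant 2 and 896.0 in mutant 1. That is 6.31-fold higher in mutant 2, with a log2 ratio of 3.60 in mutant 3. KDX1, a kinase-like gene of the cell integrity pathway, had 11.6 and 61.4 (5.29-fold higher). The integrity sensor gene SLG1, also called WSC1, had 268.2 and 84.5 (3.17-fold lower), and HSP150, a wall mannoprotein, had 1860.3 and 724.0 (2.57-fold lower).

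Among 20 genes of sterol esters, neutral lipids and sterol transport, 3 were higher and 4 lower. The median was -0.20, and 0.05 after the length fit. ARE1, an acyltransferase that stores sterol as ester, had signals of 140.2 in control 1/2 and 927.2 in mutant 2, with 514.3 in mutant 1, and was 6.61-fold higher in mutant 2. ARE2, which encodes the other sterol acyltransferase, had 38.6 and 35.2, a log2 ratio of -0.13 whose sign turned under quantile normalization (0.07). NCR1, related to the human Niemann-Pick C1 protein, was higher, at 76.6 and 182.0 (2.38-fold). NPC2, related to the human Niemann-Pick C2 protein, was lower, at 449.2 and 155.0 (2.90-fold). SWH1, an oxysterol-binding protein homolog, had 105.4 and 19.2 (5.49-fold lower). In mutant 1 NPC2 and SWH1 had log2 ratios of 0.72 and -0.12, and in mutant 3 -0.38 and -0.05.

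Ergosterol synthesis had 1 of 25 members higher and 6 lower (24.0%, against 16.6% of all genes), with a median of -0.35, -0.12 after the length fit. HMG2, an isoform of the HMG-CoA reductase, was the member above, at 85.7 and 177.8 (2.07-fold). The other isoform, HMG1, had 278.8 and 168.3, a log2 ratio of -0.73. ERG12, mevalonate kinase, had 218.8 and 76.5 (2.86-fold lower), and ERG3, a desaturase, had 1871.0 and 774.1 (2.42-fold lower). ERG11, the azole target, had 1635.5 and 1329.1. Of 27 sphingolipid genes, 1 was higher (3.7%) and 3 lower (11.1%). KEI1, a subunit of inositol phosphorylceramide synthase, was the higher member, at 165.4 and 678.3 (4.10-fold), and had log2 ratios of 0.00 in mutant 1 and -0.80 in mutant 3. The median of the list was -0.02.

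INO1, inositol-phosphate synthase, had a signal of 11.5 in control 1/2, 27.0 in mutant 2 and 72.5 in mutant 1. The mean for mutant 2 and its control was under the signal filter, so the gene was not counted. Its scaled S98 signals were 34.9 and 263.3.

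Genes of the phosphate regulon, which the factor Pho4 turns on when phosphate is short, were lower in mutant 2. Of 24 members, 0 were higher and 14 lower (58.3%, against 16.6% of all genes). The median log2 ratio was -1.26, and -0.96 after the length fit. PHO5, the major secreted acid phosphatase, had signals of 643.3 in control 1/2, 15.9 in mutant 2 and 72.3 in mutant 1. It was 40.5-fold lower in mutant 2, and its log2 ratios in mutants 1 and 3 were -3.15 and -2.61. The related phosphatase genes PHO11 and PHO12, whose probe sets cross-hybridise and cannot be told apart, had log2 ratios of -5.13 and -4.82. SPL2, an inhibitor of low-affinity phosphate transport, had 272.7 in control 1/2 and 9.3 in mutant 2 (29.3-fold lower). All 3 mutant samples had lower SPL2 than their control, with log2 ratios of -3.71 in mutant 1 and -2.71 in mutant 3. PHO84, the high-affinity phosphate transporter, had 897.2 in control 1/2, 89.3 in mutant 2 and 551.3 in mutant 1. The 10.05-fold difference in mutant 2 stood beside log2 ratios of -0.70 in mutant 1 and -0.61 in mutant 3. VTC3 and VTC4, of the vacuolar polyphosphate polymerase, had log2 ratios of -2.10 and -1.89, while their small partner VTC1 had 0.06. PHO4 itself had signals of 61.0 and 18.1 (3.37-fold lower). The list's median was -0.65 in mutant 1 and -0.46 in mutant 3.

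General stress genes and genes of carbohydrate reserves had the lowest median of all lists. Of 36 members, 1 was at least 2-fold higher and 25 lower (69.4%, against 16.6% of all genes). The median was -1.86, and -1.52 after the length fit. In mutant 1, against the same control, 25 were higher and 0 lower, with a median of 1.24. In mutant 3, 5 of 31 were higher and 0 lower, with a median of 0.60. The difference between the mutants was not tested.

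PGM2, the main phosphoglucomutase, had signals of 372.8 in control 1/2, 24.8 in mutant 2 and 855.3 in mutant 1. It was 15.03-fold lower in mutant 2, and the control lay between the mutants. HXK1, a hexokinase that is repressed by glucose, had 1997.7, 139.0 and 3251.2 in the same order and was 14.4-fold lower in mutant 2. Glycogen synthase genes went the same way, GSY1 from 151.8 to 11.4 (13.3-fold lower) and GSY2 from 188.5 to 41.7 (4.52-fold lower). The glycogen phosphorylase gene GPH1 had a log2 ratio of -2.90. SGA1, a sporulation glucoamylase that also degrades glycogen, is described with the meiosis genes and was higher. In trehalose synthesis TSL1 had -3.31, TPS2 had -2.26 and TPS1 had -1.10, whereas NTH1, a trehalase that degrades it, was the higher member at 136.4 and 285.6 (2.09-fold). HSP12, a membrane-associated stress protein, had 487.6 and 421.1 in control 1/2 and mutant 2 but 3564.9 in mutant 1. YNL194C, a SUR7 family gene, had 55.8 in control 1/2 and 0.6 in mutant 2 (under the floor), with 358.4 in mutant 1, and was at least 23.2-fold lower in mutant 2, or at least 4.57-fold with a floor at the 15th percentile.

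Cytosolic heat shock genes showed the same order of samples. Of 31 members, 0 were higher and 18 lower in mutant 2 (58.1%, against 16.6% of all genes). The median was -1.16, and -0.89 after the length fit. Mutant 1 had 11 higher and 0 lower, with a median of 0.72, and mutant 3 had a median of 0.02. HSP26, a small heat shock protein, had signals of 416.8 in control 1/2, 15.3 in mutant 2 and 1733.8 in mutant 1. It was 27.2-fold lower in mutant 2, and its log2 ratios were 2.06 in mutant 1 and 0.04 in mutant 3. SSA4, a stress-inducible Hsp70, had 748.4, 61.4 and 2144.1 in the same order and was 12.2-fold lower in mutant 2. HSP42, another small heat shock protein, had 1310.3 and 140.5 (9.33-fold lower), and the disaggregase gene HSP104 had 1394.9 and 298.2 (4.68-fold lower). The members did not all differ, since SSA2, an Hsp70 made without stress, had 5841.0 and 5485.8. HSF1, the heat shock transcription factor, had a log2 ratio of 0.16.

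Among 16 genes of hexose transport and glucose sensing, 0 were higher and 7 lower (43.8%, against 16.6% of all genes). The median was -0.83, and -0.48 after the length fit. The high-affinity transporter genes HXT6 and HXT7, which are nearly identical and whose probe sets cross-hybridise, had log2 ratios of -3.77 and -4.26. HXT4, of intermediate affinity, had signals of 252.7 and 26.8 (9.43-fold lower), and MTH1, a repressor of hexose transporter genes, had 46.9 and 5.2, a ratio of 9.02-fold that came to 3.84-fold with a floor at the 15th percentile. The low-affinity transporter genes HXT1 and HXT3 differed little, with log2 ratios of 0.34 and -0.25. In mutant 1 the list had a median of 0.72, and in mutant 3 of 0.30.

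**Figure D4:**
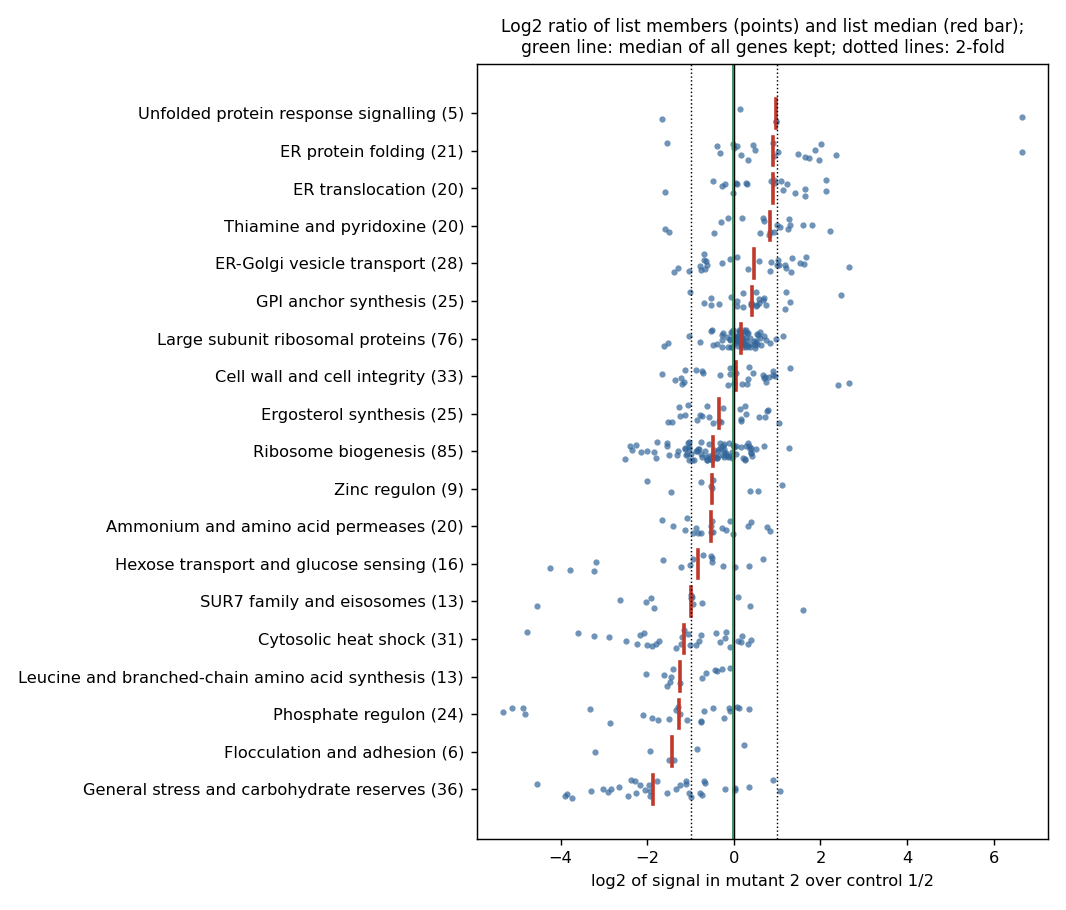
Log2 ratio of mutant 2 to control 1/2 (horizontal axis) for each member of 19 gene lists (points, with the number kept in brackets), with the list median as a red bar, the median of all genes in green and the 2-fold lines dotted. Most members of the stress, phosphate, heat shock and leucine lists lie left of 0, and most of ER folding and ER translocation right of it.

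Leucine and branched-chain amino acid synthesis had all 13 members below 0, 7 of them at least 2-fold lower (53.8%, against 16.6% of all genes). The median was -1.24, and -1.09 after the length fit. ILV2, acetolactate synthase, had signals of 978.6 in control 1/2 and 239.3 in mutant 2, with 954.1 in mutant 1, and was 4.09-fold lower in mutant 2. BAT1, the mitochondrial branched-chain aminotransferase, had 1786.5 and 615.0 (2.90-fold lower). LEU2, a common marker gene of laboratory strains, had 2568.2 and 2131.8. The list's median was -0.20 in mutant 1 and -0.31 in mutant 3. Of 20 amino acid and ammonium permease genes, 0 were higher and 4 lower, and the median of -0.52 came to -0.14 after the length fit.

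Of 20 thiamine and pyridoxine genes, 8 were at least 2-fold higher and 2 lower, where 12.4% of all genes were higher, with a median of 0.83, 1.04 after the length fit. THI21, a kinase of thiamine precursor synthesis, had signals of 24.6 in control 1/2, 115.2 in mutant 2 and 119.6 in mutant 1 (4.68-fold higher in mutant 2). Its log2 ratio in mutant 3 was 3.24. THI4, a thiazole synthase, had 26.9 and 54.0 (2.01-fold higher). PHO3, a thiamine-repressed acid phosphatase, and SNZ1, of vitamin B6 synthesis, were the lower members, with log2 ratios of -1.49 and -1.58. Probe sets of 8 of the 20 cross-hybridise with close copies, so the members are not all separate measurements. The median was 0.90 in mutant 1 and 0.58 in mutant 3.

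SUR7 family and eisosome genes, which build furrows of the plasma membrane, had 1 member higher (7.69%) and 5 lower (38.5%) of 13. The median was -0.98, and -0.83 after the length fit. LSP1, a core eisosome component, had 672.1 and 177.4 (3.79-fold lower), and NCE102, a tetraspanner of the same domain, had 1750.3 and 488.8 (3.58-fold lower). PUN1 was the higher member, at 194.9 and 591.3 (3.03-fold). Of 6 genes of flocculation and adhesion, 0 were higher and 4 lower (66.7%), with a median of -1.43. PHD1, a regulator of filamentous growth, had 141.4 and 15.2 (9.30-fold lower), and TEC1, another such regulator, had 157.5 and 41.2 (3.82-fold lower). Their log2 ratios in mutant 1 were -0.24 and -0.27.

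Of 9 zinc regulon genes 1 was higher (11.1%) and 2 lower (22.2%), with a median of -0.51, -0.19 after the length fit. Ribosome biogenesis had 1 of 85 members higher and 23 lower (27.1%), with a median of -0.49, and -0.29 after the length fit. HAS1, a helicase of that process, had 271.4 and 53.1 (5.11-fold lower). Ribosomal protein genes, which are short, were near the control. Of 76 large subunit genes 1 was higher and 3 lower, with a median of 0.16, and 0.00 after the length fit, and of 56 small subunit genes 2 were higher and 3 lower. In mutant 1, 11 of the 76 and 10 of the 56 were lower and 0 higher, with medians of -0.72 and -0.69. Probe sets of 31 of the 76 and 30 of the 56 cross-hybridise, so the members are not all separate measurements.

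In glycolysis and fermentation, 0 of 25 genes were higher and 9 lower (36.0%, against 16.6% of all genes), with a median of -0.44. PFK1 and PFK2, the subunits of phosphofructokinase, had signals of 1670.3 and 408.0 (4.09-fold lower) and of 1983.9 and 827.2 (2.40-fold lower). In the respiratory chain and citrate cycle 5 of 46 were higher (10.9%) and 10 lower (21.7%), against 12.4% and 16.6% of all genes. The median was -0.30, and MDH1, mitochondrial malate dehydrogenase, had a log2 ratio of -1.90. Of 32 translation factor genes 0 were higher and 8 lower, with a median of -0.48, and TEF4, an elongation factor subunit, had 1302.1 and 348.7 (3.73-fold lower).

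Methionine and sulfate genes were spread widely, with 4 of 27 higher, 9 lower and a median of -0.07. MET13, methylenetetrahydrofolate reductase, had 142.8 and 22.2 (6.43-fold lower). The arginine list had 0 of 13 higher and 5 lower (median -0.47), other amino acid synthesis 1 of 38 and 8 (median -0.44), and purine synthesis 0 of 29 and 5 (median -0.30). After the length fit these medians were -0.28, -0.33 and -0.04 in the same order. Lower members made up 33.3% of the methionine list, 38.5% of arginine, 21.1% of other amino acid and 17.2% of purine synthesis, against 16.6% of all genes. Higher members made up 14.8%, 0%, 2.63% and 0% in the same order, against 12.4% of all genes.

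Sorting receptors and endosomal SNAREs had 4 of 21 members higher (19.0%, against 12.4% of all genes) and 0 lower, with a median of 0.39. Beside YNR065C, described below, these were MRL1, a receptor related to the mannose 6-phosphate receptor, with a log2 ratio of 1.36, the SNARE gene PEP12 with 1.08 and PEP1, the receptor for carboxypeptidase Y, with 1.04. Among 16 autophagy genes 4 were higher and 1 lower (median 0.24, and 0.15 after the length fit). Of 13 vacuolar hydrolase genes 1 was higher (7.69%) and 3 lower (23.1%), with a median of -0.37, and -0.01 after the length fit. In the DNA damage list 3 of 18 were higher (16.7%) and 2 lower (11.1%), with a median of -0.09. MEC1 and TEL1, its checkpoint kinases, had log2 ratios of 2.55 and 1.86, from control signals of 22.6 and 18.5. TEL1 and the higher member RAD24 (18.5 and 39.5) passed the signal filter only through mutant 2. Of 16 a-cell and pheromone response genes 0 were higher and 4 lower (median -0.34), among them STE12, the transcription factor of that response, at 64.8 and 17.3 (3.75-fold lower).

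The remaining lists had counts to be set beside 12.4% higher and 16.6% lower of all genes, and medians between -0.31 and 0.31. Those of mitochondrial ribosomal proteins (6 of 69 higher, 9 lower), RNA polymerase subunits (4 of 31 and 4), the proteasome (2 of 35 and 1), oxidative stress (2 of 25 and 3) and phospholipid synthesis (2 of 23 and 5) were -0.05, 0.04, 0.07, 0.06 and 0.07. After the length fit they were -0.34, -0.23, 0.09, -0.29 and 0.15 in the same order. Medians of -0.26 for the iron regulon (2 of 26 higher, 2 lower) and -0.31 for pleiotropic drug resistance (1 of 17 and 2) were followed by -0.10 and -0.02 after the length fit. Peroxisome and beta-oxidation genes had a median of 0.19 (1 of 22 higher, 0 lower), the vacuolar ATPase 0.30 (1 of 17 and 1) and the subtelomeric PAU family, of short and near-identical genes, 0.31 (3 of 11 and 0) before and -0.08 after the length fit. For histones (0 of 11 higher, 2 lower) the median was -0.01, and -0.62 after the length fit. Lists of cyclins (3 of 20 and 2), the cytoskeleton (1 of 29 and 5), fatty acid synthesis (1 of 12 and 2), sterol uptake and hypoxic genes (1 of 15 and 3), gluconeogenesis (0 of 9 and 1), pyrimidine synthesis (1 of 13 and 1) and allantoin use (3 of 15 and 3) had medians between -0.15 and -0.03.

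HOP1, a protein of meiotic chromosomes, had signals of 8.8 in control 1/2, 73.5 in mutant 2 and 51.7 in mutant 1. It was 8.35-fold higher in mutant 2, and its scaled S98 signals were 14.2 and 131.1. The other markers of meiosis, IME1, IME2, NDT80, SPO11 and DMC1, lay under the signal filter. HOP1 itself passed only through its mutant signal, as did SGA1. SGA1, a glucoamylase of sporulation, had 12.3 in control 1/2, 37.7 in mutant 2 and 48.5 in mutant 1 (3.07-fold higher in mutant 2), and a log2 ratio of 2.31 in mutant 3. Of 37 genes listed for meiosis and sporulation only 3 passed the filter, which leaves their median of 1.62 with little behind it.

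Among single genes outside the lists, the highest were IAI11, DOG1, ADD37, KEG1, SRL3 and PMD1. ADD37, a gene linked to ER-associated degradation, had 395.5 and 2972.1 (7.52-fold higher), and KEG1, an ER protein of glucan synthesis, had 60.5 and 423.9 (7.01-fold higher). Both were closer to the control in mutant 3, with log2 ratios of 0.39 and 0.77. IAI11 had 4.7 and 156.3 from its second exon, and its S98 log2 ratio was -0.10. Its control signal was close to the floor, and its log2 ratio of 5.06 came to 3.68 with a floor at the 15th percentile. With the mean of its 2 probe sets the ratio was 3.75. DOG1, a 2-deoxyglucose-6-phosphate phosphatase, had 8.2 and 85.5 (10.4-fold higher). From within the lists the highest 15 also held the aminocholesterol resistance gene RTA1 with 114.7 and 1014.9 (8.85-fold higher), the sorting receptor homolog YNR065C with 163.8 and 1856.0 (11.3-fold higher), and PCL1, a cyclin of the Pho85 kinase, with 18.2 and 121.7 (6.69-fold higher).

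At the low end outside the lists stood MLF3, BSC1, MGA1, YME1, WHI3, HMS2, DSE2 and VHS1. YME1, a protease of the mitochondrial inner membrane, had 74.1 in control 1/2, 3.6 in mutant 2 and 72.7 in mutant 1. The mutant 2 signals of MLF3 (2.5), MGA1 (3.8), BSC1 (4.8) and WHI3 (5.4) were also close to the floor of 2.4, so the sizes of their ratios rest on signals near background. HMS2, similar to heat shock transcription factors, was lower in every mutant sample, with log2 ratios of -3.55 in mutant 2, -2.13 in mutant 1 and -1.65 in mutant 3. DSE2, a glucanase of daughter cell separation, had 458.2 and 42.1 (10.9-fold lower), against -0.31 on the log2 scale in mutant 3.

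**Figure D5:**
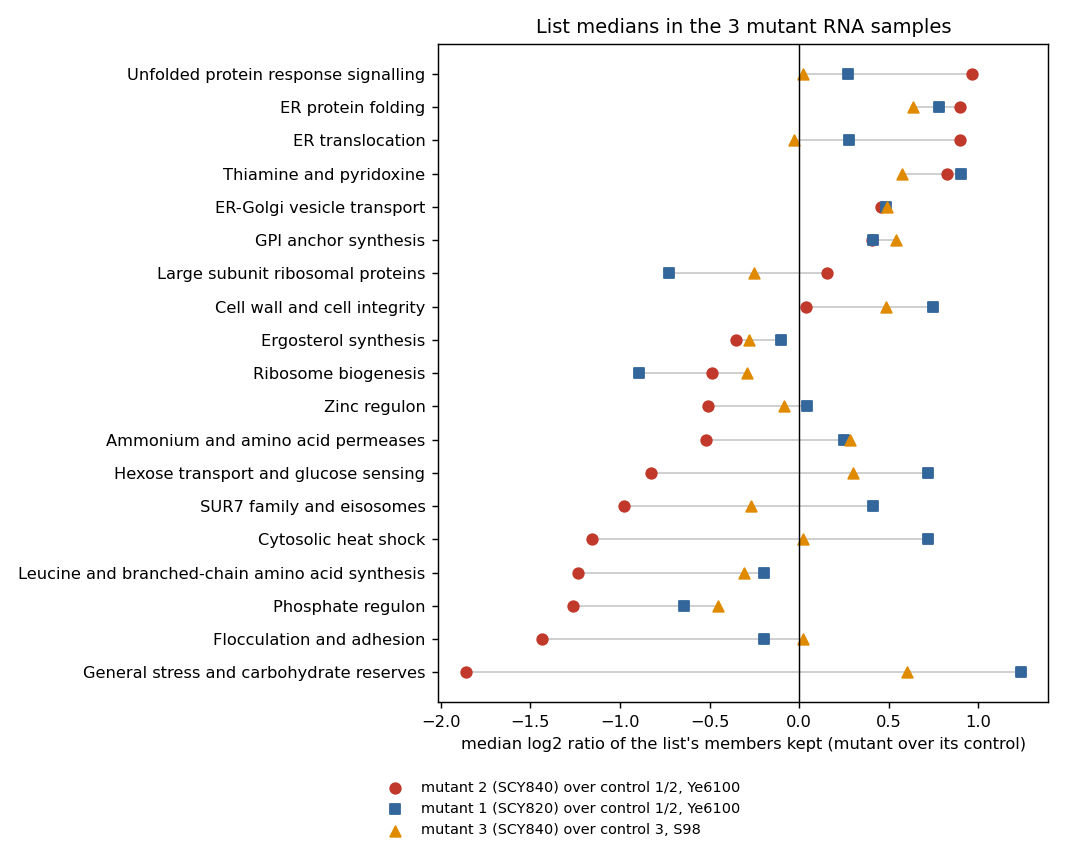
Median log2 ratio of 19 gene lists in mutant 2 and mutant 1, both over control 1/2, and in mutant 3 over control 3. The stress list sits at -1.86, 1.24 and 0.60, and ER protein folding at 0.90, 0.78 and 0.64.

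Mutant 3, the S98 sample of the same isolate, has its own control, so lists of genes could be matched. Over 4009 genes kept on both formats, 514 were at least 2-fold higher in mutant 2 and 364 in mutant 3. They shared 98, which is 19.1% of the mutant 2 list and 26.9% of the mutant 3 list. Beside these, 9.07% of all genes kept on S98 were higher in mutant 3. Of all genes kept on Ye6100, 12.4% were higher in mutant 2. Of the 514, 64.6% had a log2 ratio above 0 in mutant 3, where 58.1% of all 4009 genes did, and 6 were at least 2-fold lower. Of 645 lower genes in mutant 2 and 62 in mutant 3, 23 were shared, 3.57% and 37.1% of the lists. Beside these, 1.85% of all genes kept on S98 were lower in mutant 3, and 16.6% of those kept on Ye6100 were lower in mutant 2. Among the 645, 43.9% were below 0 in mutant 3, against 41.9% of all genes, and 54 were at least 2-fold higher there. The isolate is shared between these samples. The control strain, the array format and the RNA sample differ, and these cannot be told apart.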

How the data were processed

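Transcripts were measured in 5 RNA samples, of which control 1/2 and mutants 1 and 2 were read on Ye6100 and control 3 and mutant 3 on S98. Poly(A) RNA was labelled with biotin, per the labels' protocols. The deposited values are MAS5 intensities, 1 linear signal per probe set, per the submitters' processing notes, and the 4 Ye6100 chips are joined in 1 column per the file headers. Neither label nor header names a MAS5 version or a genome build. Ye6100 columns were used as deposited, and the S98 columns were multiplied by 0.707 (control 3) and 1.41 (mutant 3) to a common trimmed mean. Signals under the 5th percentile (2.4 and 1.98) were raised to it. The brightest probe set gave a gene's value, and genes with a mean of control and mutant signal over the 25th percentile (22.5 and 61.1) were kept. A gene with 1 signal under that mark was kept only through the other. On Ye6100 higher genes such as IAI11, DOG1, KDX1, PCL1, TEL1, RAD24, ATG11, THI5, THI11, HOP1 and SGA1 passed only through their mutant 2 signal. Lower genes such as PHO5 and HSP26 passed only through their control signal. Of those kept on Ye6100, 129 had over 1 probe set, and in 105 with over 1 above the filter the log2 ratios spanned a median of 0.39, with 22 disagreeing in sign. Names and gene lengths came from the R64 gene table, and 581 ORF probe sets were not matched. Precision is limited by the number of arrays.

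The members and the 59 gene lists were chosen with earlier results of these data known. Genes named were ARV1, the 15 highest and 15 lowest among 3197 genes with a signal over the table median and no cross-hybridising probe set, up to 6 members of each list whose median was at least 0.5 in size or that held 3 or more genes past 2-fold, and a fixed few (KAR2, PDI1, HAC1, ERO1, INO1, PHO5, PHO84, HSP26, ARE1, ARE2, ERG11, HMG1 and ACT1). Other list members and markers were named after their values were seen. The ratio code was tested on simulated data. The alternatives tried were other scalings, floors, filters and choices of probe set, with a loess on gene length added after seeing the data. Promoter sequences were not analysed here. Python 3.11.15, numpy 2.4.6, pandas 2.3.3, statsmodels 0.14.6 and matplotlib 3.10.9 were used.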

Additional observations from a re-analysis of the deposited data

Results flagged for a closer look

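In 3 gene lists, the median log2 ratios of mutants 1 and 2 over their shared control had opposite signs and were both at least 0.5 in size. General stress and carbohydrate reserve genes had -1.86 in mutant 2 and 1.24 in mutant 1 (36 genes). For cytosolic heat shock genes the medians were -1.16 and 0.72 (31 genes). Hexose transport and glucose sensing genes had -0.83 and 0.72 (16 genes). In mutant 3, like mutant 2 of isolate SCY840, the medians were 0.60, 0.02 and 0.30 in the same order. With 1 RNA sample for each of mutants 1, 2 and 3, the differences were not tested.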

How the results depend on the processing

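Of 2856 values of 319 named genes under the alternatives, 2804 moved by under 1.5 times and 52 by more. The sign turned for 11 values of 7 genes, ARE2 and ERG11 among them, and for 0 of a gene past 2-fold. For the 15 lists with a median of at least 0.5 in size, 130 of 135 medians moved by less and 5 by more, and 0 changed sign. Over all 58 lists with members kept, 36 medians of 18 lists changed sign, all of lists nearer 0, such as phospholipid synthesis (0.07, and -0.43 with no filter) and the PAU family (0.31, and -0.09 without cross-hybridising probe sets). A floor at the 15th percentile reduced the ratios of 17 named lower genes, MLF3 from 40.4-fold to 8.29-fold and YME1 from 20.6-fold to 6.07-fold. The unfolded protein response signalling median was 0.144 with no signal filter. Meiosis and sporulation had 2.24 with a loess on signal, 0.058 with no filter (37 genes) and 0.058 with the filter at the median (1 gene). The neighbours of ARV1 had -1.45 with the filter at the median (2 genes). Genes at least 2-fold higher numbered 456 to 663 (564 as reported), and those lower 480 to 1036 (753), the 480 with the filter at the median, where 3035 genes remain. Quantile normalization gave 656 higher and 602 lower genes, so 52.2% of these were higher, against 42.8% as reported. With the loess on gene length 513 were higher and 616 lower. No paired analysis was possible because each group has 1 RNA sample and no test was run, and no replicate could be left out. Background signal limits ratios of genes near the floor.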

Other observations

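Median log2 ratios in mutant 2 differed between chromosomes, taken from the ORF names. The lowest were those of chromosome XIV (-0.38, 333 genes) and XIII (-0.26, 352 genes), and the highest those of XVI (0.28, 364 genes) and II (0.16, 321 genes). In mutant 1 they were 0.01, 0.09, 0.36 and 0.39, and in mutant 3 0.03, 0.08, 0.21 and 0.16, in the same order. Which of the 4 chips held a probe set is not given in the files used here.

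Next to ARV1 on chromosome XII, 5 neighbours passed the signal filter, of which 1 was higher and 2 lower. CSC1, a calcium-permeable channel gene, had signals of 26.9 and 70.7 in control 1/2 and mutant 2 (2.63-fold higher) and log2 ratios of 1.84 in mutant 1 and 1.43 in mutant 3. GPN3, a GTPase gene, had 140.1 and 54.5 (2.57-fold lower) and log2 ratios of -1.89 and -1.21. MAP1, methionine aminopeptidase, had 155.8 and 53.8 (2.90-fold lower). Among laboratory marker genes, URA3 had 371.9 and 174.7 (2.13-fold lower), and TRP1 had 52.3 and 114.0 (2.18-fold higher).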
